A study of Mus musculus with 2 samples.

Results

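The MEF2 transcription factors are described here in leukaemia-initiating cells of mouse acute myeloid leukaemia. The family was taken by symbol as Mef2a, Mef2b, Mef2c and Mef2d, and all 4 members were found among the 46095 entries of the gene table. RNA sequencing gave 1 library labelled P2X1-KO and 1 labelled WT (wild type), so there was 1 library per group and no difference below has a replicate check or a p-value. Both libraries came from bone marrow cells of C57BL/6 mice aged 8 weeks, sorted as Mac1+ and C-kit+. Their genotype fields read P2x1-KO and wild type, while the protocol fields also use the names P2X1-KD and P2X1-Scr, and no choice between a knockout and a knockdown was made. The sources used here do not give how the leukaemia was started or whether animals were pooled. In total, 9447894 counts over 16165 genes were recorded in the P2X1-KO-labelled library and 14658620 counts over 19824 genes in the WT-labelled library.

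P2rx1, the targeted gene, which encodes an ATP-gated cation channel, had 45 counts in the P2X1-KO-labelled library and 27 in the WT-labelled library. That is 2.93-fold higher in the P2X1-KO-labelled library (95% interval 1.78 to 4.90) and goes against its label. Each direction below is therefore one between libraries as labelled. Levels are counts per fixed number of reads (CPM), scaled with the trimmed mean of M values (TMM), and folds are ratios of CPM. Their 95% intervals are exact and cover counting error only, not the spread between animals. The sort markers Itgam and Kit were present in both libraries and lay within 2-fold, Itgam at 504 CPM in the P2X1-KO-labelled library and 307 CPM in the WT-labelled library. Kit had 19.9 CPM in the P2X1-KO-labelled library and 13.3 CPM in the WT-labelled library.

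MEF2 proteins carry a MADS box at their N-terminus, bind A/T-rich sites as dimers, and switch between repression and activation of their targets. At rest they hold class IIa histone deacetylases on their sites. Calcium-dependent and other kinases phosphorylate these deacetylases, which then leave the nucleus, and calcineurin and MAP kinases act on the MEF2 proteins themselves. In blood cells MEF2C is known for its part in the monocyte, lymphoid and megakaryocyte lineages, and in leukaemia for its high level in forms driven by MLL fusions.

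The 4 members share the stretch that codes for the MADS box. It is shown as a place where reads of a member could be taken for those of another. The first 171 coding bases of 1 principal GENCODE M21 transcript of each gene are given below, with capitals at bases that differ from Mef2c.
Mef2c: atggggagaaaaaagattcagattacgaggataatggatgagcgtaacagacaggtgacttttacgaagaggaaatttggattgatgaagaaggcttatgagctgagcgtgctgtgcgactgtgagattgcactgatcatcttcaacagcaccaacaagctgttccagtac
Mef2a: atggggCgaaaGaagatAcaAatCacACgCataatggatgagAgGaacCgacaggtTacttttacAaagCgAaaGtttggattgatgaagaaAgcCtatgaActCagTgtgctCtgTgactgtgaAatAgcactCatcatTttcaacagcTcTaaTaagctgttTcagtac
Mef2d: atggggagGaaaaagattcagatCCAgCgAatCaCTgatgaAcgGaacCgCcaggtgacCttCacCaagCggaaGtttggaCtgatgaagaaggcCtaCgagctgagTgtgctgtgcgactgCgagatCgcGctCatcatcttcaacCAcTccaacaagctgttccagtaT
Mef2b: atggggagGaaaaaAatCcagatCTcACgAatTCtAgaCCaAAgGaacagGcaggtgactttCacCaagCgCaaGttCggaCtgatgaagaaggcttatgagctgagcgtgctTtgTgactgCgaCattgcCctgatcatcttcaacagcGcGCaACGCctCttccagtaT
Mef2d, Mef2a and Mef2b differ from Mef2c at 30, 31 and 38 of these bases. Shared runs were searched over whole transcripts, not only over this stretch. The longest exact run shared by any transcripts of 2 members was 31 bases, between Mef2b and Mef2c. Next came 28 bases between Mef2c and Mef2d, longer than any unbroken match of that pair in the stretch shown. No other pair shared a run above 17 bases. The sources used here do not give the read length.

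Among the 3 members that reached a mean of 5 CPM, Mef2c alone was 2-fold or more higher in the P2X1-KO-labelled library, and none was lower by that much. Of all 10483 genes at that level, 12.1% were higher by 2-fold or more and 10.6% lower. Mef2c had 1150 counts in the P2X1-KO-labelled library (95% interval 1084 to 1218) and 240 in the WT-labelled library (211 to 272), or 129 CPM against 15.4 CPM. The intervals are far apart, although the P2X1-KO-labelled library is the shallower one. The fold was 8.41 (7.31 to 9.71), a log2 difference of 3.03. In all, 215 of the 10483 genes (2.05%) were higher by at least as much. Mef2c lies on the plus strand of chromosome 13 from 83504034 to 83667080 (mm10), and GENCODE M21 lists no other gene across it. Its 31 annotated transcripts, 27 of them coding, cannot be separated with counts per gene.

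**Figure D1:**
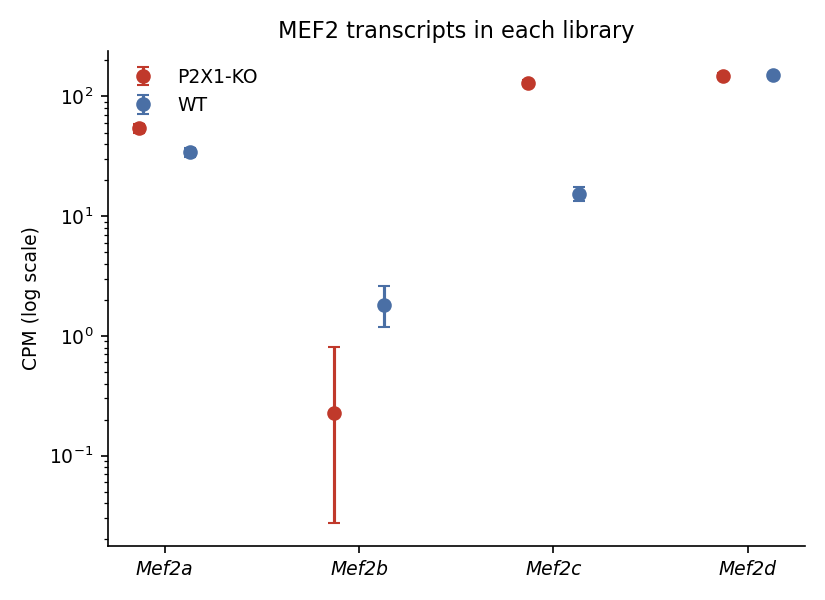
Level of each MEF2 transcript in CPM on a log axis, as points with exact 95% counting intervals, for the P2X1-KO-labelled library (left of each pair) and the WT-labelled library. Mef2c stands at 129 against 15.4 CPM and Mef2d at 148 against 150 CPM, while the Mef2b points rest on 2 and 28 counts.

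Mef2d, the most abundant member in both libraries, was level between them. It had 1316 counts, or 148 CPM, in the P2X1-KO-labelled library and 2339 counts, or 150 CPM, in the WT-labelled library. The intervals of these levels overlap, and the fold of 0.988 (0.922 to 1.06) includes no difference. After a correction for exon length and GC content the log2 difference took the opposite sign, -0.02 before and 0.18 after it. That correction subtracts medians of gene bins, so it also moves the centre of all genes, whose median was -0.08 before it. Mef2d, expressed in most tissues, lies on the plus strand of chromosome 3 from 88142372 to 88172086. It shares 531 exonic bases with the antisense gene 1700113A16Rik, which had 48 counts in the P2X1-KO-labelled library and 42 in the WT-labelled library. Reads in the shared bases could not be told apart if counting ignored strand, and counts per gene do not give their number.

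Mef2a was higher in the P2X1-KO-labelled library, by less than 2-fold. This member is likewise broadly expressed and is best known from muscle and neurons. It had 480 counts, or 54.0 CPM, in the P2X1-KO-labelled library and 536 counts, or 34.4 CPM, in the WT-labelled library. The fold was 1.57 (1.39 to 1.78), and 2084 of the 10483 genes (19.9%) were higher by at least as much. Mef2a lies on the minus strand of chromosome 7 from 67231163 to 67372858 and shares 302 exonic bases with Lysmd4 on the opposite strand. Lysmd4 had 45 counts in the P2X1-KO-labelled library and 157 in the WT-labelled library, the other direction. After the length and GC correction the log2 difference of Mef2a, 0.64 without it, was 1.21 and so past 2-fold. That correction used the exon union, 14681 bases for Mef2a, while its longest coding transcript has 5538.

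Mef2b was close to the limit of detection. Known for its place in germinal centre B cells, it had 2 counts (0.242 to 7.22) in the P2X1-KO-labelled library and 28 counts (18.6 to 40.5) in the WT-labelled library, or 0.225 against 1.80 CPM. Its mean of 1.01 CPM is below the level of 5 CPM used for the other members. The ratio was 7.98-fold lower in the P2X1-KO-labelled library, with a wide counting interval of 2.01 to 69.1. Mef2b lies on the plus strand of chromosome 8 from 70139711 to 70167488, and Borcs8 overlaps it on the same strand with 62 shared exonic bases. Borcs8 had 80.8 CPM in the P2X1-KO-labelled library and 63.9 CPM in the WT-labelled library, so the 2 genes differ in opposite directions.

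**Figure D2:**
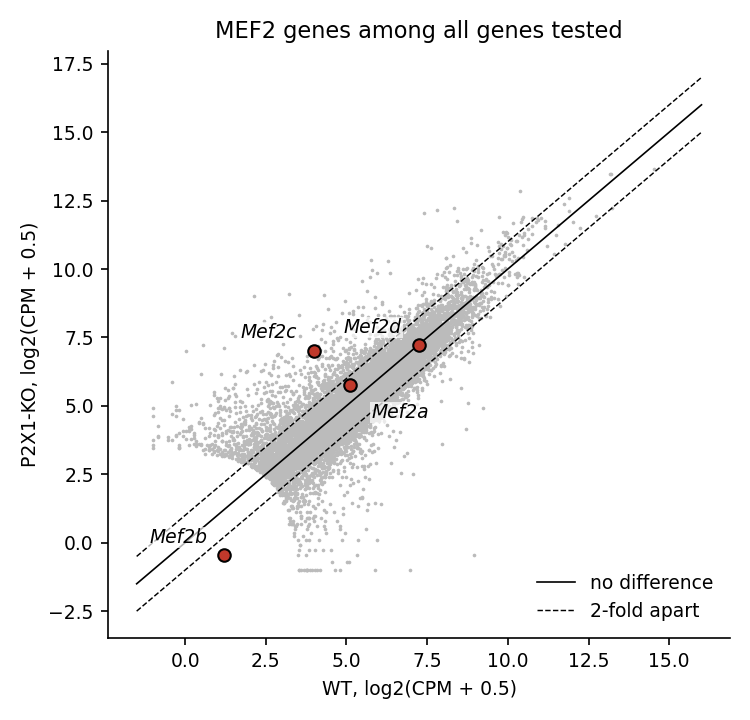
Each grey point is 1 of the 10483 genes whose mean reached 5 CPM, with log2(CPM + 0.5) of the WT-labelled library on the x axis and of the P2X1-KO-labelled library on the y axis. The 4 MEF2 genes are marked, Mef2b from below that level, and Mef2c lies well above the upper dashed line of 2-fold.

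The family's makeup differed between the libraries. Shares are taken within each library and need no scaling between them. Mef2c took 39.0% of the 2948 MEF2 counts in the P2X1-KO-labelled library (exact interval 37.2 to 40.8) and 7.64% of the 3143 in the WT-labelled library (6.73 to 8.62). Mef2d took 44.6% (42.8 to 46.5) in the P2X1-KO-labelled library and 74.4% (72.9 to 75.9) in the WT-labelled library. The share of Mef2a was 16.3% (15.0 to 17.7) in the P2X1-KO-labelled library and 17.1% (15.8 to 18.4) in the WT-labelled library, with overlapping intervals. For every count of Mef2d there were 0.874 counts of Mef2c (0.807 to 0.947) in the P2X1-KO-labelled library, against 0.103 (0.0895 to 0.117) in the WT-labelled library. The sum over the 4 genes, which does rest on scaling, was 332 CPM in the P2X1-KO-labelled library and 202 CPM in the WT-labelled library, 1.65-fold higher (1.57 to 1.73). Per kilobase of exon the sum was 36.8 CPM in the P2X1-KO-labelled library and 29.7 CPM in the WT-labelled library.

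**Figure D3:**
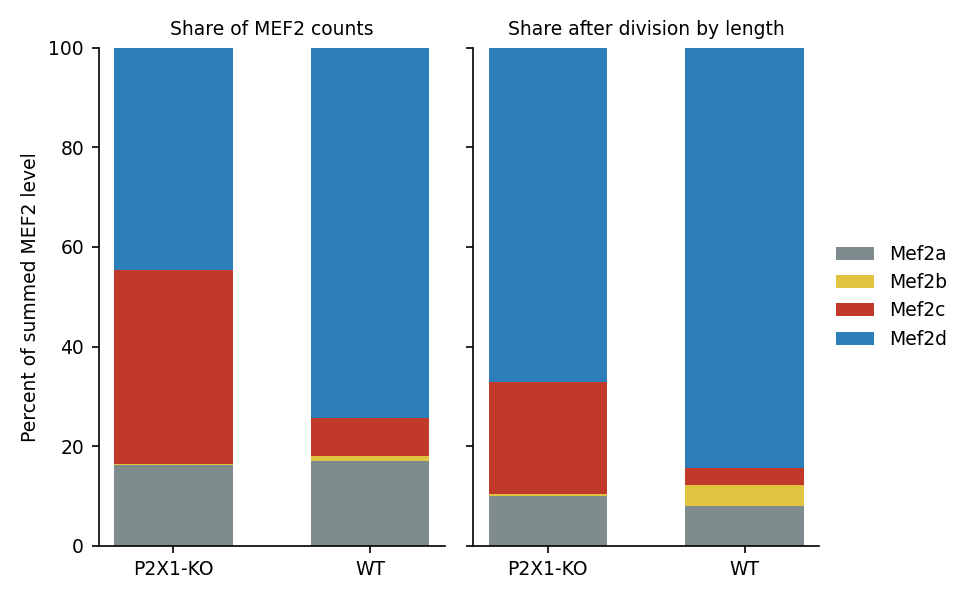
Stacked bars give the percent of the summed MEF2 level taken by each gene in the P2X1-KO-labelled library and the WT-labelled library, from counts (left panel) and after division by exon length (right panel). The Mef2c segment is 39.0% against 7.64% by counts and 22.4% against 3.30% by length.

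Levels of different genes were compared per kilobase of exon, using the union of all annotated exons. In the P2X1-KO-labelled library the order was Mef2d at 24.8 CPM per kilobase, Mef2c at 8.24, Mef2a at 3.68 and Mef2b at 0.160, and the counting intervals of neighbours did not overlap. In the WT-labelled library the order was Mef2d at 25.1 CPM per kilobase, Mef2a at 2.34, Mef2b at 1.28 (0.850 to 1.85) and Mef2c at 0.980 (0.859 to 1.11), and the last 2 did not differ beyond counting error. Mef2c was thus the second member in the P2X1-KO-labelled library and shared the lowest place in the WT-labelled library. Exon unions overstate the length of Mef2a (14681 bases) and Mef2c (15715 bases), since no single annotated coding transcript of theirs exceeds 5538 and 6277 bases. Divided by the longest coding transcript, Mef2c came to 20.6 CPM per kilobase in the P2X1-KO-labelled library and 2.45 in the WT-labelled library, which there placed it above Mef2b at 1.34.

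The genes nearest to each member were found by the distance between their log2(CPM + 0.5) values in the 2 libraries, among 13210 named coding genes. A pair of libraries gives little to tell patterns apart, so likeness means only similar levels in both. Nearest to Mef2c were Lat2 at 133 CPM, Mpeg1 at 119 CPM and Lilrb4a at 131 CPM in the P2X1-KO-labelled library, against 16.8, 14.6 and 17.7 CPM in the WT-labelled library, with distances of 0.13, 0.15 and 0.20. Nearest to Mef2d were Hadha, Ubr4 and Usp3, and nearest to Mef2a were Stk38, Ccnf and Hras, at distances of 0.04 or less. Among the genes nearest to Mef2b were Nim1k and Tanc2, each with 2 counts in the P2X1-KO-labelled library and 29 and 27 in the WT-labelled library.

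In mice, miR-223 is known to lower Mef2c in granulocyte progenitors, so its seed and the matches to it are shown. RefSeq places the mature form at chrX:96242884-96242905 (GRCm38.p6, plus strand), and capitals mark its seed and the 7-base matches after the stop codon of the longest coding transcripts.
miR-223-3p: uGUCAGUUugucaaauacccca
Mef2c, first match: aactattgggtcAACTGACa
Mef2c, second match: cttcatgattttAACTGACc
Mef2a match: agtgttgctttaAACTGACt
Mef2c held 2 such matches in 4447 bases, Mef2a 1 in 3705, and Mef2b and Mef2d 0 in 203 and 3443. The miRNA's own gene, Mir223, had 4 counts in the P2X1-KO-labelled library and 0 in the WT-labelled library. Mature miRNAs are not measured by such counts, and the matches are letters found, not sites shown to act.

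Repressors that sit on MEF2 sites differed in both directions. All 8 repressor genes reached a mean of 1 CPM. In the P2X1-KO-labelled library 2 of them were higher by 2-fold or more and 0 lower, and the median log2 difference was 0.05. Over all 13382 genes that reached this level, 15.5% were higher by that much, 14.0% lower, and the median was -0.06. The sign of the repressors' median was negative with total counts (-0.13) and at a mean of 5 CPM or more (-0.54). Hdac9, a class IIa deacetylase gene that MEF2 itself controls, had 52 counts in the P2X1-KO-labelled library and 20 in the WT-labelled library, a 4.56-fold difference (2.68 to 8.07) at low level. Hdac5 and Hdac7, the more abundant class IIa genes, were higher by 1.57-fold (1.46 to 1.68) and 1.62-fold (1.48 to 1.78). Hdac4 was lower, at 23.0 CPM in the P2X1-KO-labelled library and 36.0 CPM in the WT-labelled library. The 4 class IIa genes thus did not share a direction. Ncor1, a corepressor gene, was 1.68-fold lower (1.60 to 1.77). Cabin1, which encodes a calcineurin-binding repressor of MEF2, was 1.95-fold lower, and Hdac3, the partner of NCOR1, 1.46-fold lower.

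The kinases listed act on class IIa deacetylases or on MEF2 proteins, directly or through other kinases. Of 20 measured kinase genes, 3 passed 2-fold upward in the P2X1-KO-labelled library and 4 downward. These shares are close to the 15.5% and 14.0% of all genes at a mean of 1 CPM. The kinases' median log2 difference was -0.11, and that of all genes -0.06. Camk1, a calmodulin-dependent kinase gene, had 108 CPM in the P2X1-KO-labelled library and 37.3 CPM in the WT-labelled library, 2.90-fold higher (2.62 to 3.22). The salt-inducible kinases differed among themselves. Sik1 was 2.23-fold higher (2.03 to 2.46), Sik2 2.45-fold lower (2.17 to 2.76), and Sik3, which keeps HDAC4 off MEF2C in human leukaemia cells, was near level at 72.2 CPM in the P2X1-KO-labelled library and 81.4 CPM in the WT-labelled library. Camk2b was also higher, with 39 counts in the P2X1-KO-labelled library and 6 in the WT-labelled library. Camkk1, Map2k6 and Camk2g were the others lower, Camk2g at 2.01-fold. Stk11, encoding the kinase LKB1 upstream of the SIK kinases, and Mark2 lay within 1.2-fold. Mapk7, encoding ERK5, and Mapk14, encoding p38 alpha, which phosphorylate MEF2 proteins, were 1.23-fold and 1.40-fold lower. Prkd1 and Mapk12 had 0 counts in both libraries.

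Calmodulin and calcineurin genes lay within 2-fold throughout. Of 8 measured, 0 passed 2-fold in either direction, against 15.5% upward and 14.0% downward of all genes at a mean of 1 CPM. The median log2 difference was -0.07, close to the -0.06 of all genes, or 0.013 with upper-quartile scaling. The calmodulin genes Calm2 and Calm3 were higher in the P2X1-KO-labelled library, by 1.56-fold and 1.30-fold. The calcineurin subunit genes Ppp3ca, Ppp3cb and Ppp3r1 had 206, 64.3 and 74.2 CPM in the P2X1-KO-labelled library and 226, 80.3 and 74.3 CPM in the WT-labelled library. Rcan1, a calcineurin inhibitor whose own transcription calcineurin raises, was 1.77-fold lower (1.39 to 2.28).

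Coactivators and partners of MEF2 had a median log2 difference of -0.40, against -0.06 for all genes at a mean of 1 CPM. Of 7 measured, 0 passed 2-fold upward and 2 downward, against 15.5% and 14.0% of all genes. Srf, encoding the other animal MADS-box factor, was 2.45-fold lower (2.32 to 2.59), at 180 CPM in the P2X1-KO-labelled library and 440 CPM in the WT-labelled library. Crebbp, an acetyltransferase gene, was 2.18-fold lower (1.94 to 2.46), while its relative Ep300 was level at 95.8 CPM in the P2X1-KO-labelled library and 99.8 CPM in the WT-labelled library. Myocd, encoding the muscle coactivator myocardin, had 0 counts in both libraries, and the MEF2 coactivator gene Mamstr had 0 counts in the P2X1-KO-labelled library and 6 in the WT-labelled library.

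Genes reported as MEF2 targets were split. Of 16 listed genes, chosen from muscle, neurons, bone and lymphocytes as well as from myeloid cells, 6 had 0 counts in both libraries. Il7r (8 counts in the P2X1-KO-labelled library and 1 in the WT-labelled library) and Col10a1 (0 and 2 counts in that order) stayed below 1 CPM, which the other 8 reached. Of these, 4 passed 2-fold upward in the P2X1-KO-labelled library and 1 downward, against 15.5% and 14.0% of all genes at a mean of 1 CPM. The median log2 difference was 1.01, against -0.06 for all genes. Nr4a1, an orphan nuclear receptor gene under MEF2 control in T cells, had 1084 counts, or 122 CPM, in the P2X1-KO-labelled library and 602 counts, or 38.6 CPM, in the WT-labelled library. Its fold was 3.16 (2.86 to 3.50). Ckm, the muscle creatine kinase gene, was 4.37-fold higher (3.41 to 5.64) and the early response gene Arc 2.12-fold higher (1.64 to 2.76), and Hdac9 was the last of the 4. Klf4 was just within 2-fold, at 1.98. In the other direction, Jun was 1.41-fold lower (1.36 to 1.46), with 505 CPM in the P2X1-KO-labelled library and 713 CPM in the WT-labelled library. Klf2 was 1.22-fold lower (1.18 to 1.27), and Ppargc1a had 1 count in the P2X1-KO-labelled library and 37 in the WT-labelled library, 21.1-fold lower with a counting interval of 3.56 to 855. Jun and Klf2, the most abundant genes on the list, were thus lower where Mef2c was higher.

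**Figure D4:**
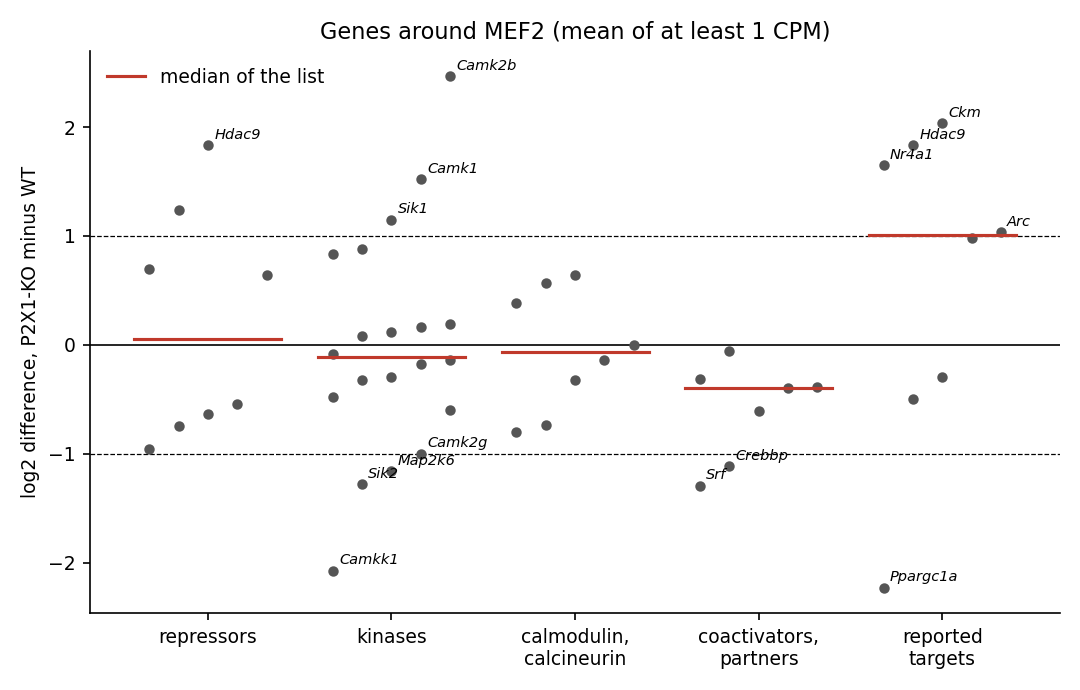
Difference in log2(CPM + 0.5), library labelled P2X1-KO minus library labelled WT, for each gene with a mean of at least 1 CPM on 5 lists around MEF2, with most names beyond 1 in either direction (dashed lines) and red lines at the medians. The medians run from -0.40 for coactivators and partners to 1.01 for reported targets.

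Jun and Klf2 hold the core letters of a MEF2 site next to their start, as does Mef2a. The letters searched were CTANNNNTAG with A or T at each N, a palindrome that reads alike on both strands, from 250 bases before to 50 after each RefSeq start (GRCm38.p6). The stretches are shown with the match in capitals and 10 bases on each side.
Jun, chr4:95052236-95052265, minus strand: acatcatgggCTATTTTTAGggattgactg
Klf2, chr8:72318934-72318963, plus strand: tataccgcggCTAAATTTAGgctgagcccg
Mef2a, chr7:67372841-67372870, minus strand: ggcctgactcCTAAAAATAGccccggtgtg
The match began 33 bases before the start in Jun, 118 before in Klf2 and 2 before in Mef2a. It was found in 2 of the 14 reported targets with a promoter sequence and in 1 of the 4 members, against 73 of 12771 genes with at least 1 count (0.572%). A looser consensus raised this to 3 of 14 targets, against 2.30% of the genes with at least 1 count. The third target, Mmp10, had 0 counts in both libraries and so is not among those genes. The windows of Mef2b, Mef2c and Mef2d held no match to either form. Genes can be reported as MEF2 targets because they hold such a site, so the targets' share is not independent support.

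Most markers of maturing myeloid cells were higher beside Mef2c. Of 9 monocyte and macrophage markers that reached 1 CPM, 8 passed 2-fold upward in the P2X1-KO-labelled library and 0 downward, against 15.5% and 14.0% of all genes at this level. The exception among the 9 was Ly6c2, 1.10-fold lower (1.06 to 1.14). All 10 listed markers together summed to 5636 CPM in the P2X1-KO-labelled library and 876 CPM in the WT-labelled library. Csf1r, the receptor of the macrophage growth factor, was 9.72-fold higher (8.93 to 10.6), a fold whose interval overlaps that of Mef2c. Neutrophil markers summed to 12758 CPM in the P2X1-KO-labelled library and 3218 CPM in the WT-labelled library, with 9 of 10 past 2-fold upward. The exception was Ly6g, a defining neutrophil marker, with 36 counts in the P2X1-KO-labelled library and 109 in the WT-labelled library, 1.72-fold lower (1.17 to 2.59). Dendritic cell markers summed to 312 CPM in the P2X1-KO-labelled library and 140 CPM in the WT-labelled library, and among them Irf8 was 6.58-fold higher and Flt3 1.52-fold lower (1.36 to 1.70), while Siglech and Ccr9 had 0 counts in both. In bulk RNA, more cells of a type and more RNA per cell cannot be told apart. The part of these cell types in the Mef2c result was not tested.

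For other cell types known to express Mef2c, several defining markers were at or near 0. For B cells, Ms4a1, Pax5 and Ebf1 had 0 counts in both libraries. Cd79b was 3.23-fold higher, while Cd79a was level at 1.69 CPM in the P2X1-KO-labelled library and 1.73 CPM in the WT-labelled library. The B cell list summed to 49.8 CPM in the P2X1-KO-labelled library and 16.9 CPM in the WT-labelled library. For megakaryocytes, Pf4, Ppbp and Treml1 had 0 counts in both, Vwf was 8.44-fold higher (5.70 to 12.9), and the list summed to 23.0 CPM in the P2X1-KO-labelled library and 4.87 CPM in the WT-labelled library. For endothelium, Kdr, Tek and Emcn had 0 counts in both. Pecam1, which myeloid cells also express, was 3.45-fold higher. Egfl7 was 1.71-fold lower (1.13 to 2.64), and Ptprb had 0 counts in the P2X1-KO-labelled library and 18 in the WT-labelled library. The endothelial list summed to 46.6 CPM in the P2X1-KO-labelled library and 19.9 CPM in the WT-labelled library. Muscle markers summed to 26.3 CPM in the P2X1-KO-labelled library, nearly all from Ckm, and 16.9 CPM in the WT-labelled library, with Myh1 and Myh4 at 0 in both. Des, the desmin gene and the largest part of the muscle sum in the WT-labelled library, differed the other way from Ckm, with 9 counts in the P2X1-KO-labelled library and 162 in the WT-labelled library, 10.3-fold lower (5.27 to 22.8). The part of these cell types in the Mef2c result was not tested.

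Stromal, eosinophil and mast cell markers stood furthest apart. Stromal markers summed to 207 CPM in the P2X1-KO-labelled library and 1.86 CPM in the WT-labelled library, with Lum, Dcn and Pdgfra at 0 counts in both. The sum in the P2X1-KO-labelled library came from collagen genes and Sparc, and that in the WT-labelled library from Col1a1 at 0.962 CPM and Cxcl12 at 0.898 CPM. Cxcl12 differed the other way from the collagen genes, with 0 counts in the P2X1-KO-labelled library and 14 in the WT-labelled library. Eosinophil and mast cell markers summed to 203 CPM in the P2X1-KO-labelled library and 6.29 CPM in the WT-labelled library. Prg2, Siglecf and Cpa3 gave 129, 53.7 and 18.7 CPM of the former, and Siglecf 5.39 CPM of the latter. Fcer1a, Il5ra and Ccr3 had 0 counts in both libraries. Epx and Ms4a2 had 5 and 8 counts in the P2X1-KO-labelled library and 1 and 4 in the WT-labelled library. Fibroblasts and mast cells can express MEF2 genes. The part of either in the Mef2c result was not tested. T and NK cell markers and erythroid markers were near 0, at 0.901 and 2.14 CPM in the P2X1-KO-labelled library and 0.192 and 0.962 CPM in the WT-labelled library.

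**Figure D5:**
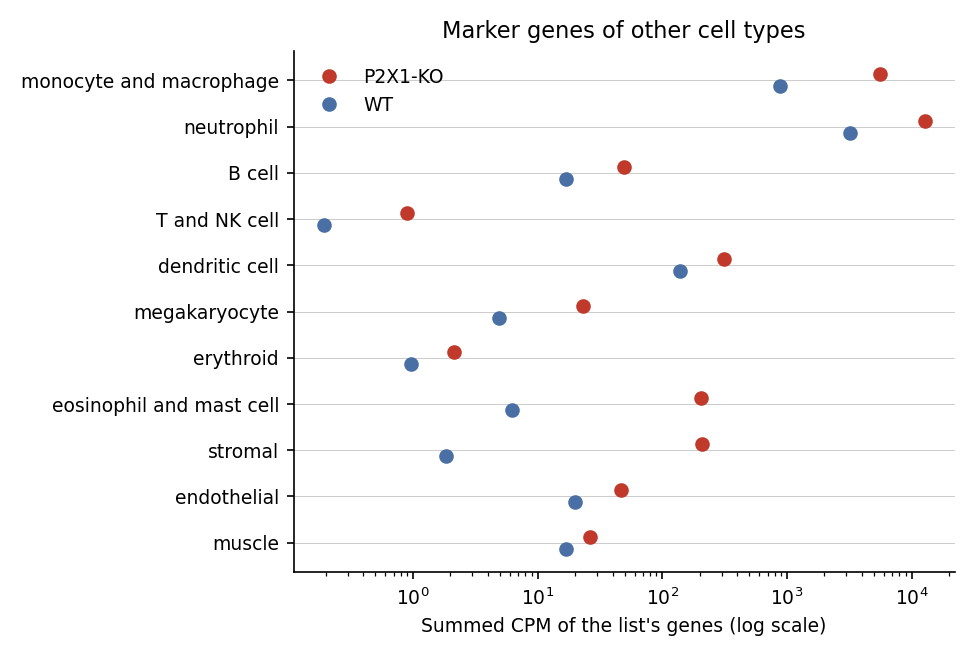
Summed CPM of each marker list on a log axis, with the P2X1-KO-labelled library above the WT-labelled library for each of 11 cell types. All 11 sums are higher in the P2X1-KO-labelled library, from muscle at 26.3 against 16.9 CPM to stroma at 207 against 1.86 CPM.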

How the data were processed

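Bulk RNA of 2 sorted leukaemia-initiating cell libraries, 1 labelled P2X1-KO and 1 labelled WT, was sequenced by the authors. The values the authors deposited are raw counts, 1 whole number for each gene symbol and library. Reads were aligned with HISAT2 2.0.4 to mm10, per the submitters' processing notes. The sources used here do not give the counter, annotation, strand setting, read length or filters. Of the entries, 27 carried dates in place of symbols (0.110% of counts in the P2X1-KO-labelled library and 0.147% in the WT-labelled library). They stayed in the totals.

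Counts were scaled with TMM in edgeR 4.0.16 under R 4.3.3, giving effective sizes of 8882591 (P2X1-KO) and 15591519 (WT). At these sizes 3 counts are 0.338 and 0.192 CPM, and lower counts were used as they are, without a floor. Log2 differences use a pseudocount of 0.5 CPM, which understates differences of low genes, and folds use none. With 1 library per group no test was made. A gene was counted as apart at 2-fold, with a mean of at least 5 CPM (1 CPM for lists). Fold intervals are Clopper-Pearson intervals of the counts given their sum and count intervals are exact Poisson. Both cover counting error only, not the spread between animals. They also treat reads as independent, which reads of a shared PCR origin are not. Gene places and exon lengths came from GENCODE M21 on the same assembly, promoters and the miRNA from RefSeq. A planned comparison of protein sequences was not made, and coding bases were compared in its place.

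The 4 members, the 17 gene lists and the rules were chosen with earlier results of these data known. The rule named the members, P2rx1, Kit and Itgam, all repressors and reported targets, from other lists up to 6 genes at a mean of at least 5 CPM whose whole interval lay beyond 2-fold, and the 3 nearest genes of each member. The other list genes given with values, Mir223, and the overlapping genes were chosen after their values were seen. Part of what the rule covers is not reported here.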

Additional observations from a re-analysis of the deposited data

How the results depend on the processing

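Total counts shifted the median of all genes from -0.08 to -0.26, and totals without the 20 most abundant genes to -0.25, while upper-quartile scaling gave 0.00 and median-of-ratios scaling -0.08. The share of higher genes among those at least 2-fold apart was 53.4% with TMM, 38.7% with total counts, 39.5% without the most abundant genes and 60.9% with the upper quartile. With total counts the log2 difference was 2.86 for Mef2c, 0.47 for Mef2a and -0.20 for Mef2d, and without the 20 most abundant genes -0.18 for Mef2d. A correction for exon length and GC content, chosen after the data were seen, gave 3.60 for Mef2c, 1.21 for Mef2a and 0.18 for Mef2d, so Mef2a then passed 2-fold and Mef2d took the opposite sign. The correction used exon unions, which overstate the length of Mef2a and Mef2c. It also moves the centre of all genes, so values with and without it do not share a baseline. Mef2c stayed above 2-fold under each of these alternatives. Mef2b, whose 2 counts limit its value and which was below the level for the length and GC correction, stayed lower under every scaling and pseudocount tried.

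Counts of genes depend on the filter. At a mean of at least 1, of at least 20 and with no filter beyond 1 count, 2074, 726 and 3604 genes were at least 2-fold higher and 1870, 611 and 6484 at least 2-fold lower. The first of these filters kept 13382 genes and the last 20541 entries. With no filter, an entry with 0 counts in a single library was counted as apart. The shallower P2X1-KO-labelled library had counts for 16165 genes, against 19824 in the WT-labelled library. The MEF2 genes at least 2-fold lower numbered 1 at a mean of 1 CPM and 1 with no filter, against 0 at 5 CPM.

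The median of the repressors had the opposite sign with total counts (-0.13), without the 20 most abundant genes (-0.11) and at a mean of at least 5 CPM (-0.54). That of calmodulin and calcineurin had the opposite sign with the upper quartile (0.013) and moved to -0.25 with total counts and -0.23 without the most abundant genes. That of coactivators and partners moved to -0.58 and -0.56.

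Shares of the summed MEF2 level depend on the length used. Per exon union, by counts and per longest coding transcript, Mef2c had 22.4%, 39.0% and 35.6% in the P2X1-KO-labelled library and 3.30%, 7.64% and 6.49% in the WT-labelled library. In the same order Mef2d had 67.2%, 44.6% and 47.3%, against 84.5%, 74.4% and 73.5%. Mef2a had 9.99%, 16.3% and 16.8%, against 7.89%, 17.1% and 16.4%, and Mef2b 0.435%, 0.0678% and 0.289%, against 4.31%, 0.891% and 3.54%. Mef2c ranked 2 in the P2X1-KO-labelled library under all 3, and in the WT-labelled library 4 by exon union and 3 by the others. No paired analysis was possible because each group has 1 library, and for the same reason no library could be left out.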
